A study of Rattus norvegicus with 20 samples.

Results

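Adenine-tailed isomiRs are miRNA reads that match their hairpin along their whole length and then end in 1 to 3 A bases that the hairpin does not encode. They were taken from small RNA sequencing of the adBNST, the anterodorsal subregion of a basal forebrain nucleus (the bed nucleus of the stria terminalis) that takes part in stress responses, in 20 Sprague-Dawley rats. The rats were weaned on postnatal day 21, kept group housed (GH) or in social isolation (SI) for 6 weeks, and killed at about 9 weeks of age, with 5 rats in each of 4 groups (GH and SI males, GH and SI females). Tissue was a bilateral punch, so the libraries hold every cell type of the punched region and fewer cells of a type cannot be told apart from less RNA per cell, and the females sequenced were chosen for RNA integrity and for a range of estradiol levels. An isomiR was counted as a member when its reads had no mismatch and an addition made only of A, and each distinct combination of miRNA, addition and end positions was 1 isomiR. By this rule 4980 of the 67859 isomiRs of the series were members, against 3331 with tails made only of U (written as T in the reads). The members held 8927687 reads from 479 of the 612 rat miRNAs with a read free of mismatches, and the other 133 miRNAs had no A-tailed read. Of the members, 413 were listed in all 20 libraries and held 90.7% of the A-tailed reads, while 1628 were listed in 1 library only.

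Between 3358892 and 11141223 reads without mismatch were counted per library, and intervals from such counts cover counting error only, since copies made by PCR were not removed. Brain miRNAs were abundant, with miR-9a-5p at 7.46%, miR-128-3p at 4.30% and miR-124-3p at 1.93% of these reads on average, whereas the liver miRNA miR-122-5p made up 0.000824%. The rats labelled I17 were placed by their labels, although the names of their files give the opposite sex.

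Mature miRNAs lie with their 3′ end anchored in Argonaute, and bases can be added there after the hairpin has been cut. Terminal nucleotidyltransferases do this work. TENT2 (GLD-2) adds A to miRNAs such as miR-122 in liver, PAPD5 (TENT4B) adds A to miR-21 and starts its decay, and TUT4 and TUT7 add U. An A tail leaves the seed at the 5′ end unchanged. In different miRNAs A tails have been tied to greater stability, to trimming, or to no measured effect.

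The sequences below are A-tailed forms of the miRNAs on which the results turn, as read in the deposited files, in lower case with the added A in capitals, and in the first 2 sets each is the most-read A-tailed form of its miRNA. The let-7 guides are shown because they carried the most A-tailed reads while differing in only a few bases.
let-7b-5p: tgaggtagtaggttgtgtggttA
let-7i-5p: tgaggtagtagtttgtgctgttA
let-7c-5p: tgaggtagtaggttgtatggttA
let-7e-5p: tgaggtaggaggttgtatagttA
let-7g-5p: tgaggtagtagtttgtacagttA
let-7a-5p: tgaggtagtaggttgtatagttA
let-7f-5p: tgaggtagtagattgtatagttA
let-7d-5p: agaggtagtaggttgcatagttA
miR-98-5p: tgaggtagtaagttgtattgttA
The other abundant carriers of A tails are shown next, followed by the best-covered miRNAs with a high A-tailed share. Of the latter, only miR-134-5p ends in a run of g before the tail.
miR-26a-5p: ttcaagtaatccaggataggctA
miR-128-3p: tcacagtgaaccggtctctttA
miR-92b-3p: tattgcactcgtcccggcctccA
miR-9a-5p: tctttggttatctagctgtatgaA
miR-134-5p: tgtgactggttgaccagagggAA
miR-378a-3p: actggacttggagtcagaaggcA
miR-99b-3p: caagctcgtgtctgtgggtccgA
miR-3099: taggctagaaagaggttggggaA
The last set holds the leading A-tailed forms of the first 2 miRNAs and the single isomiRs of the others that had a called difference between housing groups.
miR-125b-2-3p: acaagtcaggctcttgggacA
miR-149-5p: tctggctccgtgtcttcactcA
miR-877: gtagaggagatggcgcagggAA
miR-125b-5p: tccctgagaccctaacttgtA
In the RefSeq annotation of GRCr8, mature miR-125b-2-3p lies at chr11:29732627-29732648 on the plus strand and mature miR-149-5p at chr9:100861814-100861836 on the plus strand. Both miRNAs were named in the RefSeq table, as were 270 of the 292 miRNAs tested here.

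Across the adBNST libraries, A was on average the most frequent single-base tail among those that could be called. A tail is called only where the next hairpin base differs from it, so A and U tails were not equally visible. The percents below were not adjusted for this. An A tail was found on 7.03% ± 0.400 of the reads without mismatch (SD, n = 20), against 5.74% ± 0.334 for U, 0.265% ± 0.0252 for C and 0.207% ± 0.0168 for G. Tails of mixed bases made up 1.91% ± 0.260, and 84.8% ± 0.658 of the reads had no tail. The A-tailed percent lay between 6.15% and 7.60%, and the lowest value, that of GH female 16, was the only one below the U-tailed percent of its library (6.18%).

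Short tails prevailed. A single A was seen on 80.1% ± 1.01 of the A-tailed reads, AA on 17.1% ± 0.854 and AAA on 2.85% ± 0.259 (SD, n = 20). The deposited calls allow at most 3 added bases, so longer tails were not analysed here. The base before the tail was the annotated 3′ end of the miRNA in 57.8% ± 2.04 of A-tailed reads and 57.8% of untailed reads. A shortened end came before the tail in 32.9% ± 1.70 of A-tailed reads, against 28.5% shortened ends among untailed reads, and an extended end in 9.32% ± 1.002, against 13.7%. The 5′ end was the annotated one in 93.5% ± 0.951 of A-tailed reads.

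An added A can be told from the hairpin only where the next hairpin base is not A, because otherwise it is read as a templated extension. No A-tailed read had A as its next hairpin base, and 9.81% of untailed reads ended before an A. A U tail is hidden in the same way before a hairpin T, and the share of untailed reads ending there was not counted directly. Of the A-tailed reads at ends followed by C, G or T, 50.6% had T as the next base. Only 9.41% ± 0.470 of the reads ending before a T were A-tailed (SD, n = 20). Many more untailed reads thus ended before a T than before an A, so U tails could be hidden at more ends. Whether A exceeds U with hidden tails counted was not tested. Among ends followed by C, G or T (called visible ends below), the share with an A tail depended on the last base before the tail. After a G the A-tailed share of reads at visible ends was 18.99% ± 1.59 (SD, n = 20), after C 12.7% ± 0.938, after A 10.6% ± 0.508 and after U 6.13% ± 0.523. G was the base with the highest share and U the one with the lowest in 20 of 20 libraries. Ends in U still made up 52.2% of the A-tailed reads at visible ends. These are values over reads of miRNAs that differ in many other ways, and are given without a test.

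The 10 miRNAs with the most A-tailed reads held 47.6% of them, by their mean percent of the A-tailed reads of a library. The first was let-7c-5p, with 10.7% of the A-tailed reads, followed by let-7b-5p with 5.58%, miR-26a-5p with 4.97%, miR-128-3p with 4.76% and let-7a-5p with 4.59%. Then came miR-92b-3p with 4.09%, let-7f-5p with 3.91%, miR-9a-5p with 3.66%, let-7i-5p with 2.71% and let-7g-5p with 2.60%. The tailed share of their own reads differed widely. In miR-9a-5p, a miRNA of neural progenitors and neurons and the most-read miRNA of all, 3.37% ± 0.457 of its reads were A-tailed (SD, n = 20). In miR-92b-3p, of the miR-25 family, 12.9% ± 0.759 were A-tailed. In miR-128-3p, a neuronal miRNA, the A-tailed percent was 7.73% ± 0.570, and in miR-26a-5p 5.69% ± 0.648.

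For the 292 miRNAs with a mean of at least 10 A-tailed and 10 other reads per library, which held 99.9% of all A-tailed reads, the median of the mean A-tailed percent was 7.45% (quartiles 3.84% and 14.9%). The A-tailed percent exceeded the U-tailed percent in 200 of them. Hidden tails of either base were not counted, and U tails could be hidden at more ends, so this number does not show which tail was more frequent. It was above 20% in 39 and below 1% in 9. The values kept their order only in part from library to library. Across the 190 pairs of libraries, Pearson's r of the log2 odds of an A tail over these miRNAs ran from 0.295 to 0.773 with a median of 0.518, a description over miRNAs of unequal depth that share a library and are not replicates. The remaining 187 miRNAs with an A-tailed read were too sparse to be tested.

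The highest A-tailed percent belonged to miR-134-5p, a neuronal miRNA of the imprinted cluster of chromosome 6 known for acting on dendritic spines, with 46.8% ± 3.14 of its reads (SD, n = 20) and every library between 38.3% and 51.1%. Its leading form lost the last g before AA. miR-378a-3p, encoded in an intron of a metabolic coactivator gene, had 38.1% ± 3.64, miR-99b-3p 35.2% ± 7.36 and miR-3099 31.2% ± 2.15. The other members of the 10 highest rested on few reads and varied far more. They were miR-17-5p with 42.0% ± 30.1, miR-344b-3p with 41.6% ± 35.4, miR-673-5p with 36.4% ± 23.4, miR-540-3p with 34.7% ± 9.55, miR-877 with 31.5% ± 7.51 and miR-324-5p with 30.7% ± 11.3. In miR-17-5p, with 31.5 A-tailed reads per library on average, single libraries ran from 0% to 100%. miR-344b-3p and miR-673-5p likewise had libraries at 0%, and the place of these 3 in the order is uncertain at this depth.

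The lowest values among the 50 most-read miRNAs came from miRNAs with hidden ends and from miRNAs with visible ones. In miR-103-3p (0.317% ± 0.270) and miR-320-3p (0.868% ± 0.249), 97.4% and 97.7% of the untailed reads ended before a hairpin A, where an added A cannot be seen. At their few visible ends the A-tailed percent was 12.04% for miR-103-3p and 40.5% for miR-320-3p. In miR-434-3p (0.370% ± 0.106), miR-7a-5p (1.22% ± 0.138) and miR-7b (1.23% ± 0.262), by contrast, no untailed read ended before an A, and at visible ends the percent was 0.374%, 1.23% and 1.24%. miR-7a-5p, a miRNA of neuroendocrine cells, was the fifth most-read miRNA, so its low value rests on many reads.

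miRNAs that end in G had a higher median A-tailed percent also when each miRNA counted once. At visible ends the gap to miRNAs ending in A or C was smaller, and the gap to those ending in U was larger. The median over the 69 tested miRNAs with G as the last annotated base was 13.8%, against 6.06% for 67 ending in A, 5.31% for 54 ending in C and 6.10% for 98 ending in U. At visible ends these medians were 16.4%, 13.03%, 9.90% and 6.90%. With the number of G among the last 4 annotated bases the median went from 4.22% (0 G, 70 miRNAs) over 6.00% (1 G, 121 miRNAs) and 10.9% (2 G, 76 miRNAs) to 18.7% (3 G, 20 miRNAs). At visible ends the same medians were 6.69%, 9.65%, 17.2% and 29.8%. The arms differed little, with a median of 7.84% in 131 miRNAs of the 5p arm and 7.31% in 138 of the 3p arm. These medians are descriptions over miRNAs, without a test.

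The let-7 guides, a family of near-identical miRNAs that hold back growth and stem cell genes, differed widely among themselves. Together with miR-98-5p the 9 members held 34.3% of the A-tailed reads and 29.0% of all reads without mismatch. let-7b-5p had the highest A-tailed percent of the family in 20 of 20 libraries, at 17.1% ± 1.11 (SD, n = 20, range 14.6% to 19.1%). let-7i-5p followed with 12.8% ± 0.923, let-7c-5p with 10.7% ± 0.734 and let-7e-5p with 8.28% ± 0.337. Each of these 4 was above the next in order in 20 of 20 libraries. Below them, let-7g-5p (6.28% ± 0.538), let-7a-5p (5.97% ± 0.348), let-7f-5p (5.70% ± 0.515), let-7d-5p (5.26% ± 0.536) and miR-98-5p (4.75% ± 0.515) lay within about 1 SD of their neighbours in that order, and each was above the next in 14 to 16 libraries.

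let-7b-5p and let-7c-5p, which differ from each other only near the 3′ end, kept a wide gap at the annotated end alone. There 22.6% ± 1.60 of let-7b-5p reads and 9.57% ± 0.927 of let-7c-5p reads with an A tail or no tail carried the tail, and the next hairpin base was T in both. At this end let-7e-5p (10.3% ± 0.563) was above let-7c-5p, so the order of these members depends on which ends are counted.

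In the 10 neuronal and brain-enriched miRNAs the median A-tailed percent was 8.97%, with a range from 1.96% (miR-153-3p) to 19.1% (miR-137-3p), beside 7.45% over all 292. miR-218a-5p, enriched in motor and other neurons, reached 18.1% ± 2.59 and miR-132-3p, induced by neuronal activity, 13.8% ± 1.82, while miR-124-3p, the most neuron-specific member, had 8.37% ± 2.15. The glial and vascular miRNAs (8 of 10 tested) had a median of 5.88%. The miR-30 family was low throughout, with its 5 members between 2.01% and 3.85%, and the miR-29 family ran from 7.37% (miR-29b-3p) to 17.9% (miR-29c-3p). Of 61 miRNAs listed for the imprinted cluster of chromosome 6, 33 were tested, with a median of 4.87% and a range from 0.558% (miR-382-3p) to 46.8% (miR-134-5p).

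miR-21-5p, a known substrate of PAPD5, had 11.8% ± 3.30 A-tailed reads. It had 0.171% called as U-tailed, a value that leaves out U tails hidden before a hairpin T. Its leading form carried the A after a templated c, as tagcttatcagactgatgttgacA. miR-122-5p, the liver substrate of TENT2, had 11.4 A-tailed reads per library on average, and its values between 0% and 53.6% rest on too few reads to be read. miR-760-3p carried more U than A, with 15.5% ± 1.86 A-tailed and 34.3% U-tailed reads.

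Whether isolation in adolescence shifted A tailing was first asked of whole libraries. The A-tailed percent in GH males was 7.19%, 7.005%, 6.87%, 7.12% and 6.78%, and in SI males 6.57%, 7.28%, 6.57%, 7.54% and 7.09%. In GH females it was 7.26%, 6.67%, 6.15%, 7.47% and 6.64%, and in SI females 7.14%, 6.68%, 7.60%, 7.51% and 7.45%. The groups overlapped in both sexes. The means were 6.99% ± 0.169 in males under GH and 7.01% ± 0.433 under SI, and 6.84% ± 0.527 in females under GH and 7.28% ± 0.376 under SI (SD, n = 5 each). The SI minus GH difference was 0.0187 percentage points in males (exact permutation test, two-sided, p = 0.937), 0.437 in females (exact p = 0.167) and 0.228 over both sexes (exact p = 0.222). All 9 library tests had an adjusted p of at least 0.690 (Benjamini-Hochberg over the 9 exact permutation tests).

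With every library weighted to the same miRNA composition, the female difference became 0.0171 points (exact permutation p = 0.944), with GH females at 7.004% ± 0.236 and SI females at 7.02% ± 0.354 (SD, n = 5 each). In males it was -0.123 points (exact permutation p = 0.444) and over both sexes -0.0531 (exact permutation p = 0.665). No difference in tail length was detected either. Tails of 2 or more A made up 19.99% ± 0.651 of A-tailed reads in GH and 19.8% ± 0.709 in SI males, and 19.4% ± 1.62 in GH and 20.5% ± 0.762 in SI females (SD, n = 5 each). The differences were -0.172 points in males (exact permutation p = 0.690), 1.06 in females (exact permutation p = 0.230) and 0.444 over both sexes (exact permutation p = 0.361). With 5 rats against 5 the smallest p an exact test can give is 0.00794.

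Over all 20 libraries the tests detected no relation of the A-tailed percent to depth or to U tails. With depth, Pearson's r was 0.215 (permutation p = 0.366) and Spearman's rho 0.329 (permutation p = 0.158), and r was 0.254 in GH and -0.0622 in SI rats. Without the 2 libraries farthest from the median depth r was 0.510, a value without a test, so a relation to depth among the other libraries is not excluded. With the U-tailed percent r was -0.154 (permutation p = 0.520) and rho -0.114 (permutation p = 0.630). The Benjamini-Hochberg adjusted p over the 6 relations was at least 0.853.

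The number of distinct A-tailed isomiRs was lower in SI libraries, although their mean depth was higher. GH males had 1274, 1301, 1753, 2392 and 1884 A-tailed isomiRs, and SI males 1294, 1721, 1398, 989 and 1404. GH females had 1324, 1740, 2355, 2142 and 2019, and SI females 1424, 1597, 1125, 1310 and 798. The ranges overlapped in both sexes. The SI minus GH difference was -360 in males (exact permutation test, two-sided, p = 0.183), -665 in females (p = 0.0238, adjusted over 3 contrasts 0.0357) and -512 over both sexes (exact permutation p = 0.00636, adjusted 0.0191). Without single rats the male difference ran from -471 (without GH male 16) to -192 (without GH male 20), the female one from -813 to -552 and that over both sexes from -586 to -428.5. The female call was lost without GH female 12, 13, 16 or 17 or SI female 16 (exact permutation test, adjusted p = 0.0714 each). It was also lost without SI female 12 or 17 (0.0595 each). It passed without GH female 15 (0.0119) and without SI female 10 (0.0357) or 14 (0.0476). The number of distinct A-tailed isomiRs as a measure was chosen after the data had been seen.

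All isomiRs without mismatch showed a like difference. The female difference over all isomiRs without mismatch was -2996 (exact permutation p = 0.0159), and A-tailed isomiRs made up 18.2% to 21.2% of the isomiRs of every library. Over both sexes that percent was 0.913 points lower in SI (exact permutation p = 0.0329, adjusted over 3 contrasts 0.0988, which did not pass), and 0.380 points lower after each library was thinned to 3428930 reads (exact permutation p = 0.230). Thinning left the A-tailed count 468 lower in SI (exact permutation p = 0.00583). With mismatch reads included the difference over both sexes was -462 (exact permutation p = 0.0871). Depth, with means of 5553289 (GH) and 7571650 (SI) reads in males and 5402850 (GH) and 6783507 (SI) reads in females, moved with housing in the opposite direction, and the part of RNA input or amplification in the count was not tested.

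In isolated males edgeR called 1 miRNA with a changed A-tailed share, miR-125b-2-3p, the passenger strand of a neural miRNA gene, where DESeq2 called 4 and limma 6. The A-tailed percent of its reads was 7.18%, 8.07%, 6.65%, 8.14% and 6.08% in GH males, and 14.1%, 12.8%, 14.4%, 15.3% and 10.6% in SI males. The groups did not overlap, but how many of all 292 miRNAs had no overlap was not counted. Its odds of an A tail rose by 0.99 ± 0.20 on the log2 scale (SE; edgeR quasi-likelihood test on A-tailed against other reads, adjusted p = 0.0289 over the 292 miRNAs), and 0.342% of the miRNAs tested were called in this contrast, with 9.93% at an unadjusted p below 0.05. In females the values were 8.20%, 7.72%, 6.33%, 7.41% and 8.32% in GH and 8.35%, 5.73%, 9.32%, 8.94% and 14.4% in SI rats, which overlapped.

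Several forms of miR-125b-2-3p had different means in the male groups, given here as values without a test. The form shortened by ct and tailed with 1 A, shown above as a sequence, made up 3.10% ± 0.472 of its reads in GH males and 6.39% ± 0.698 in SI males (SD, n = 5 each). The form shortened by cct and tailed with AA made up 0.730% ± 0.415 and 2.10% ± 0.708. Untailed reads at the annotated end, which is followed by a hairpin A and so cannot show an A tail, were 40.4% ± 3.16 in GH males and 32.4% ± 2.54 in SI males, while untailed reads shortened by t were 12.8% ± 1.82 and 18.8% ± 2.63. At visible ends alone the A-tailed percent was 25.2% ± 3.01 in GH males and 32.8% ± 3.50 in SI males, a log2 odds difference of 0.54 that did not pass (edgeR, adjusted p = 0.434, an alternative chosen after seeing the data).

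The male call was also lost without GH male 16 (adjusted p = 0.0826, edgeR), 18 (0.110) or 21 (0.130), and without SI male 15 (0.0971), 17 (0.112) or 22 (0.0995). In separate fits it was lost with the I17 rats exchanged (adjusted p = 0.159, edgeR), with only tails of exactly 1 A counted (0.102), and with no filter (0.0671).

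In isolated females the A-tailed share of miR-149-5p fell, the only call of edgeR, where DESeq2 called 2 miRNAs (miR-149-5p among them) and limma 1 (miR-325-5p). The A-tailed percent was 2.29%, 1.96%, 2.30%, 2.43% and 2.57% in GH females, and 1.38%, 1.41%, 0.947%, 1.71% and 0.918% in SI females. The groups did not overlap, but how many of all 292 miRNAs had no overlap was not counted. The odds of an A tail fell by 0.91 ± 0.18 on the log2 scale (SE; edgeR, adjusted p = 0.0252), and 0.342% of the 292 miRNAs were called, with 7.19% at an unadjusted p below 0.05. In males the values were 1.62% to 2.45% in GH and 1.61% to 2.31% in SI rats. The form shortened by cc with 1 A, shown above as a sequence, made up 1.05% ± 0.204 of miR-149-5p reads in GH females and 0.467% ± 0.199 in SI females, and the form at the annotated end with 1 A 0.672% ± 0.187 and 0.548% ± 0.228 (SD, n = 5 each). At least 127 A-tailed reads of miR-149-5p stood behind each female value. The difference between the sexes in this effect did not pass (edgeR interaction, log2 difference -0.92 ± 0.26, adjusted p = 0.630).

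This call was lost without GH female 13 (adjusted p = 0.0897, edgeR), 15 (0.0714), 16 (0.0714) or 17 (0.101), and without SI female 16 (0.0942) or 17 (0.117). With the I17 rats exchanged the log2 difference was -0.65 (edgeR, adjusted p = 0.383), and in a fit of the female groups alone the adjusted p was 0.173 (edgeR). It was also lost with limma (adjusted p = 0.339) and with no filter (edgeR, 0.0591).

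Over both sexes edgeR called 0 of 292 miRNAs, while 14.4% (42 miRNAs, 21 higher and 21 lower in SI) had an unadjusted p below 0.05. DESeq2 called 25 (7 higher, 18 lower) and limma on the log2 odds 5 (2 higher, 3 lower). The lowest adjusted p of 0.0605 was shared by miR-125b-2-3p, with a log2 odds difference of 0.63 ± 0.14, and miR-376b-5p, of the chromosome 6 cluster. The latter had 80, 11, 6, 38 and 73 A-tailed reads in GH males and 0, 7, 0, 0 and 0 in SI males, with 39, 65, 70, 12 and 47 in GH females and 31, 11, 0, 0 and 0 in SI females. Its fitted difference of -3.65 ± 0.86 (log2 odds) rests on these few reads. let-7g-5p followed (-0.18 ± 0.05, edgeR adjusted p = 0.0839), with 6.25% to 6.83% in GH males against 5.44% to 6.23% in SI males, and 6.12% to 7.17% in GH females against 5.25% to 6.72% in SI females.

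Among the main carriers of A tails, miR-9a-5p had the same adjusted p as let-7g-5p (log2 odds difference -0.29 ± 0.07, edgeR adjusted p = 0.0839 over both sexes). Its A-tailed percent was 3.91%, 3.77%, 3.78%, 3.73% and 3.61% in GH males and 2.66%, 2.90%, 3.06%, 3.10% and 3.08% in SI males. The male contrast did not pass (edgeR, adjusted p = 0.219). miR-218a-5p showed a like pattern in males, with 17.95% to 21.6% in GH and 13.2% to 16.8% in SI rats (log2 odds difference -0.49 ± 0.12, edgeR adjusted p = 0.116). miR-124-3p lay on the other side, with 6.38% to 8.75% in GH males and 7.32% to 12.3% in SI males (0.55 ± 0.18, edgeR adjusted p = 0.284).

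Beside these, the third lowest p in males belonged to miR-376b-5p and the next lowest in females to miR-325-5p and let-7f-5p. miR-325-5p had between 82 and 168 A-tailed reads in GH females and 76, 28, 0, 0 and 0 in SI females (edgeR, log2 odds difference -4.91 ± 1.33, adjusted p = 0.225). let-7f-5p had mean values of 6.10% ± 0.558 in GH and 5.32% ± 0.471 in SI females (SD, n = 5 each; edgeR adjusted p = 0.491). The interaction of housing and sex called 0 miRNAs with edgeR (4.11% with an unadjusted p below 0.05), 1 with DESeq2 and 1 with limma, and miR-149-5p, miR-325-5p and miR-26b-5p (log2 difference 0.47 ± 0.15) had the lowest p, with an edgeR adjusted p of 0.630 each. GH females against GH males gave 0 calls with edgeR, DESeq2 and limma, and 1.71% of the miRNAs had an unadjusted p below 0.05 with edgeR, led by miR-181a-5p, miR-375-3p and miR-652-3p, all lower in females before adjustment (adjusted p = 0.999 each).

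By group of miRNA, edgeR called 0 members of the let-7, neuronal, glial and vascular, miR-29, miR-30 and chromosome 6 lists in the housing contrasts. Their tested members numbered 9, 10, 8, 3, 5 and 33. Over both sexes 2, 3, 3, 1, 1 and 3 of these had an unadjusted p below 0.05 with edgeR, beside 42 of all 292 miRNAs (14.4%). Over both sexes DESeq2 called 2 let-7 guides, 4 neuronal miRNAs, 1 glial miRNA, 1 miR-30 and 2 of the chromosome 6 list, and limma 1 let-7 guide (let-7g-5p) and 2 neuronal miRNAs (miR-9a-5p and miR-124-3p). Of all 292 miRNAs DESeq2 called 25 and limma 5. In males DESeq2 called 1 neuronal miRNA and 1 of the chromosome 6 list, and limma 1 let-7 guide and 3 neuronal miRNAs, and in females both called 0 members of the lists. Of all 292 miRNAs DESeq2 called 4 and limma 6 in males, and 2 and 1 in females. Of the 9 let-7 guides, 8 had a lower A-tailed share in SI over both sexes, with a median log2 odds difference of -0.06. Over all 292 miRNAs the median was -0.12, with 102 higher and 190 lower. In the other lists the median was -0.03 for the neuronal miRNAs (3 higher, 7 lower), -0.35 for the glial and vascular ones (3 higher, 5 lower), 0.18 for miR-29 (2 higher, 1 lower), -0.16 for miR-30 (0 higher, 5 lower) and -0.22 for chromosome 6 (8 higher, 25 lower).

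Single A-tailed isomiRs were then compared by abundance, within a test of all 10290 isomiRs with at least 10 counts in 5 libraries, of which 1581 were A-tailed. In males 1 of these passed, which is 0.0633% of the A-tailed isomiRs and 0.00972% of all isomiRs tested, against 0 of the 8709 others by edgeR. At an unadjusted p below 0.05 were 7.46% of the A-tailed, 9.42% of the other and 9.12% of all isomiRs. DESeq2 called 8 A-tailed isomiRs. Here and below its calls among other isomiRs were not counted, so its numbers cannot show whether A-tailed isomiRs were called more often. The isomiR called by edgeR was miR-877 with AA at its annotated end, a miRNA made from a spliced intron. It had 87, 11, 30, 24 and 37 reads in GH males and was listed with 0 reads in all 5 SI males. With a floor of 3 counts per library it was at least 17.2-fold lower in SI males, and edgeR gave an adjusted p of 0.00802. In females it had 132, 34, 32, 11 and 7 reads in GH and 27, 37, 32, 87 and 99 in SI rats.

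The call for this miR-877 form depends on the sex given to the I17 rats. With them exchanged, a library with 32 reads enters the SI males, and the adjusted p is 0.586 (edgeR). The A-tailed percent of miR-877 as a whole was 35.7% ± 6.29 in GH males and 22.5% ± 4.28 in SI males (SD, n = 5 each), which did not pass in the share test. Other A-tailed forms with low p were at 0 in a whole group as well. These forms and the miR-877 form passed the filter through the groups where they had reads. A group at 0, and the fold drawn from it, is thus not independent of that filter. Each fold is drawn from the GH mean and need not hold for each GH rat. The miR-543-3p form below, with a median of 0 reads in SI females too, passed through GH rats. miR-543-3p with AAA after a templated T had 6 to 44 reads in GH males and 0 in SI males (at least 11.7-fold lower, edgeR adjusted p = 0.222). In females, miR-181a-5p shortened by t with AAA had 13 to 43 reads in GH and 0 in SI rats (at least 11.7-fold lower, edgeR adjusted p = 0.318). The miR-344b-3p form shortened by t with 1 A had 5 to 30 reads in GH females and 0 in SI females. The miR-129-2-3p form with 1 A at its annotated end had 0 to 40 in GH females, with 1 rat at 0, and 0 in SI females. By the GH mean these 2 were at least 8.16-fold and 6.89-fold lower (edgeR adjusted p = 0.318 each), which does not hold for the GH female at 0. In the other direction, miR-338-5p, from an oligodendrocyte miRNA gene, shortened by tg with 1 A had 5 to 63 reads in GH males and 123 to 245 in SI males (log2 fold change 1.93 ± 0.48, edgeR adjusted p = 0.222).

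In females edgeR called 0 A-tailed isomiRs, with 9.61% of them, 9.16% of the others and 9.23% of all isomiRs at an unadjusted p below 0.05, against 9 calls by DESeq2. Over both sexes 2 passed with edgeR (0.127% of the A-tailed ones, beside 0.276% of the others and 0.253% of all), both with a fitted value below 0. The first was the miR-877 form (edgeR, adjusted p = 0.0180), which had 0 reads in all 5 SI males, so that no fold is given, and a log2 fold change of 0.33 ± 0.70 in females (edgeR, adjusted p = 0.995). The second was miR-125b-5p, an abundant neural miRNA, shortened by ga with 1 A. It stood at 65.7, 51.8, 83.7, 57.9 and 62.4 reads per 1000000 reads in GH males against 45.9, 52.2, 30.6, 37.2 and 33.0 in SI males. In females it was 81.3, 70.7, 64.1, 73.2 and 80.8 in GH against 39.2, 44.1, 57.7, 42.1 and 33.4 in SI rats. The female groups did not overlap and the male groups overlapped by 1 value, but the share of all isomiRs without overlap was not counted. The miR-125b-5p form fell by 0.74 ± 0.15 on the log2 scale (edgeR, adjusted p = 0.0465). This call was lost in 15 of the 20 fits that left out 1 rat (edgeR, adjusted p from 0.0245 to 0.0982 over the 20), and in 20 of all 27 alternatives. Among these were the I17 rats exchanged (edgeR, adjusted p = 0.0613), no filter (edgeR, 0.379) and DESeq2 (0.387). Without SI female 10 the number of A-tailed isomiRs called over both sexes was 20.

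A set of 14 A-tailed isomiRs stands in the isomiR lists of the study, which chose them on these samples, so their direction here is no independent evidence. All 14 were tested, and 11 were higher and 3 lower in SI females, with a median log2 fold change of 0.81, beside -0.07 over the 1581 A-tailed isomiRs. With edgeR 0 had an adjusted p below 0.05 in females, and 14 had an unadjusted p below 0.05. In males 9 were higher and 5 lower, with a median of 0.21. The largest female value was that of miR-760-3p with 1 A at its annotated end, at 25.3 ± 9.38 reads per 1000000 reads in GH and 66.5 ± 36.4 in SI females (SD, n = 5 each; log2 fold change 1.38 ± 0.37, edgeR adjusted p = 0.318). miR-486 with 1 A, from a miRNA of red blood cells, was at 238 ± 45.0 and 432 ± 200.4 reads per 1000000 reads (0.83 ± 0.24, edgeR adjusted p = 0.318, and 0.75 ± 0.17 with an adjusted p of 0.0632 over both sexes). The 3 lower ones were the miR-125b-5p form above, miR-21-5p with A after the templated c, and miR-29a-3p with 1 A, the last at 581 ± 331 in GH and 256 ± 159 reads per 1000000 reads in SI females (-1.18 ± 0.47, edgeR adjusted p = 0.392). The share of tailed reads is another quantity than these abundances. The A-tailed percent of miR-760-3p reads was 13.7% to 15.8% in GH females and 13.1% to 17.99% in SI females.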

How the data were processed

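Small RNA libraries of 20 rats were made with a kit that adds random bases to its adapters, from 215 ng of RNA with 22 PCR cycles. The deposited values are raw counts of each distinct sequence, listed from 2 reads up. The authors trimmed adapters, poly(A) and low-quality ends with cutadapt, and aligned collapsed reads to rat hairpins of miRBase 21 with seqbuster in bcbio-nextgen, with versions not given in the sources used here. Trimming of poly(A) can shorten or remove A tails, and its effect was not tested. A sequence with 1 read is not listed, so a 0 can stand for 1 read.

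From the counts, A-tailed reads were summed per rat and miRNA as a percent of reads without mismatch. The composition-standardised percent weights the miRNAs alike in all libraries. Library values were compared with two-sided exact permutation tests, over both sexes within sex. For 292 miRNAs with a mean of at least 10 A-tailed and 10 other reads, the odds of an A tail were compared with edgeR 4.0.16 (quasi-likelihood, paired columns of A-tailed and other counts, all 4 groups in the fit). IsomiRs with at least 10 counts in 5 libraries were compared by abundance with the edgeR quasi-likelihood test. This fit used a single count per isomiR and library, TMM scaling between libraries and all 4 groups. p-values were adjusted by Benjamini-Hochberg at 0.05, with limma 3.58.1 (log2 odds, pseudocount 0.5) and DESeq2 1.42.0 as alternatives, in R 4.3.3 and Python 3.11.15 with scipy 1.17.1. The tests were checked on simulated data. Alternatives changed the reads counted, the filter, the tool, the rats and the sex of the I17 rats.

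Named were the 10 miRNAs with most A-tailed reads, the 10 highest and, among the 50 most-read, 5 lowest A-tailed percents, up to 5 called features per contrast or else the 3 with the lowest p, miR-21-5p, miR-122-5p, miR-760-3p, isomiRs listed by the study, and examples of the let-7, miR-29, miR-30, neuronal, glial and vascular, and chromosome 6 lists. miR-9a-5p, miR-124-3p and miR-877 shares in males were also given after their values were seen. The members and lists were chosen with earlier results of these data known. Rats of different groups that share a number are different animals, and their deviations correlated between -0.195 and 0.106, so numbers were not taken as pairs. Sequence positions come from RefSeq on GRCr8, not the build of the files.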

Additional observations from a re-analysis of the deposited data

Results flagged for a closer look

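Among 148 groups of 5 rats looked at, 7 held a rat set far apart from the other 4, where chance gives about 5%. In miR-376b-5p, 1 SI male had an A-tailed percent of 0.877% with the others at 0%, and 1 SI female 3.94% with the others between 0% and 1.07%. In let-7f-5p, 1 GH female was at 7.07%, above the others at 5.72% to 6.04%. In miR-652-3p, 1 SI female was at 23.5%, above 20.1% to 20.7%. let-7b-5p was lowest in 1 GH male, at 15.9996% below 17.5% to 18.1%. miR-378a-3p reached 41.98% in 1 GH male, above 33.5% to 35.6%, and miR-3099 37.4% in 1 GH male, above 30.2% to 31.4%.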

How the results depend on the processing

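Counting visible ends only (chosen after seeing the data) gave an A-tailed percent difference of -0.0756 points in males and a standardised one of -0.0168 in females, which was -0.0211 with the I17 rats exchanged. Without single rats the ranges were -0.114 to 0.129 (percent, males), -0.0713 to 0.162 (standardised, females), -0.0984 to 0.0254 (standardised, both sexes) and -0.416 to 0.0716 (2 or more A, males). The exact tests of these missed the threshold throughout.

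Calls of the share test in males were 0 with tails of exactly 1 A, with visible ends and with no filter, 2 with only the male groups, 4 with DESeq2 and 6 with limma. In females they were 0 with I17 exchanged, no filter or only the female groups, and 2 with DESeq2. Over both sexes they were 3 with the reference 5′ end only, 1 with I17 exchanged, 25 with DESeq2 and 5 with limma, and for the interaction 1 with DESeq2 and 1 with limma. Without single rats they ran from 0 to 3 in males, 0 to 2 in females and 0 to 6 over both sexes, the 6 without SI female 10. Calls of A-tailed isomiRs were 0 (males) and 0 (both sexes) with I17 exchanged, 30, 45 and 239 (males, females, both) with no filter, 8, 9 and 6 with DESeq2, and 2 in males with the male groups only. Calls among other isomiRs were not counted under these settings, so no share over all isomiRs can be set beside them. Without single rats the calls of A-tailed isomiRs ran from 1 to 2 in males and 1 to 20 over both sexes. With mismatch reads the difference in A-tailed isomiRs over both sexes was -462 (exact permutation p = 0.0871). The causes were not tested.

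The replicate block used the 10 rats that share a number. With it the standardised difference was 0.0041 points in males and 0.0649 over both sexes, and that of 2 or more A 0.0149 in males. The block left 0 share calls in males and 0 in females, and 0 A-tailed isomiRs in males and 0 over both sexes. The same rats without the block also gave 0 share calls in males and 0 isomiRs in males and over both sexes, and 1 isomiR in females.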
